A study of Mus musculus with 6 samples.

Results

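The genes described here are 40 of the 14495 genes in the deposited table: 18 rows whose symbol begins with Atg and a number, and 22 further core and regulator genes of autophagy named individually, each of which was found. Rows were taken by symbol with no threshold on a measured value, but the gene set itself was drawn up with earlier results of these data known, so its counts beside those of all genes are a description. The study measured messenger RNA in ventricles of untreated male C57BL/6 mice, killed either 1 day (P1) or 14 days (P14) after birth; the labels name no genetic change. Each age had 3 libraries. A library pooled the hearts of 3 animals and was enriched for polyadenylated RNA, so that 9 hearts stood behind an age and replicates were separate pools. The labels' tissue field names the left ventricle, while their protocol describes removal of the atria and use of both ventricles and the septum. The values are read counts, and library totals ran from 5916557 (P1 replicate 3) to 17353933 (P1 replicate 1).

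Autophagy carries cytoplasm, protein aggregates and whole organelles to the lysosome inside a double-membraned vesicle, the autophagosome. A kinase complex starts the process, a lipid kinase complex marks the membrane, a scramblase and a lipid transfer protein enlarge it, and a pair of ubiquitin-like conjugation systems attaches proteins of the Atg8 family (the LC3 and GABARAP proteins) to the lipid phosphatidylethanolamine, where they hold cargo receptors. In the heart, autophagy is known for supplying nutrients in the hours after birth and for clearing damaged mitochondria and sarcomere proteins from cells that seldom divide.

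From P1 to P14, 17 of the 39 tested members rose, 1 fell and 21 did not pass. Called genes, for which the words rose and fell are kept, are those below 0.05 after adjustment in the quasi-likelihood test of edgeR, P14 over P1. The gene with the largest rise was Map1lc3a, which encodes the LC3A form of the Atg8 proteins and was 6.1-fold higher at P14. The protease gene Atg4d was 2.91-fold higher, the kinase scaffold gene Rb1cc1 2.35-fold, the lipid transfer gene Atg2a 2.29-fold, and the transcription factor genes Tfeb and Foxo1 2.22-fold and 2.18-fold. The single gene that fell was Atg3, whose enzyme performs the last step of attaching Atg8 proteins to lipid. Members that rose made up 43.6% of those tested, where 21.8% of all 14301 tested genes rose. Members that fell made up 2.56%, where 22.0% of all genes fell, so that 18 of 39 members were called beside 43.8% of all genes. The median log2 fold change was 0.44 over the 39 members and −0.01 over all tested genes. In 23 members every P14 library lay above every P1 library, an order that 27.3% of all genes showed. The reverse order held in 4 members, beside 27.5% of all genes (54.8% for both orders together).

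These counts depend on how libraries were scaled. The trimmed mean of M-values (TMM), used throughout, sets the typical gene to no change. With library totals alone the median over all genes moved from −0.01 to −0.47, and 6 members rose and 6 fell, where 11.3% and 39.1% of all genes did. The rises were then those of Map1lc3a, Map1lc3b, Atg4d, Rb1cc1, Atg2a and Foxo1, and the falls those of Atg3, Atg4b, Atg5, Becn1, Uvrag and Nbr1. A change of scaling shifts the log2 fold changes of all genes by nearly the same amount. The place of the members relative to the typical gene was therefore bound to change little. Their median lay 0.45 above that of all genes with TMM and 0.43 above it with totals alone, and 30 of 39 members lay above the median of all genes in both.

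**Figure D1:**
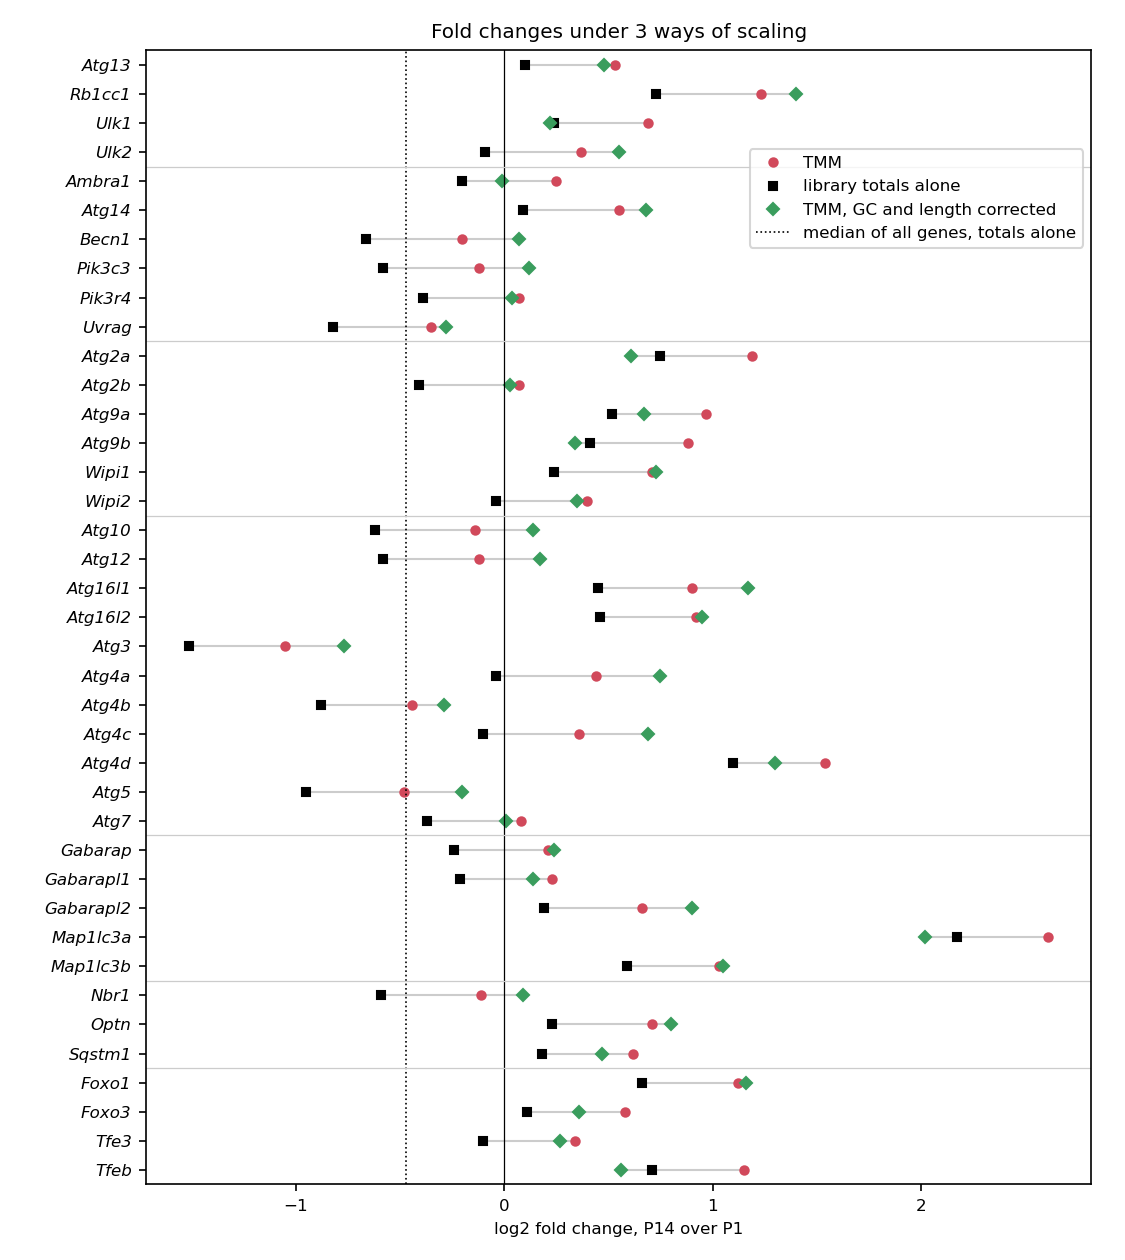
Log2 fold change of each tested member (P14 over P1) with TMM scaling (red circles), with library totals alone (black squares) and with TMM after correction for GC content and length (green diamonds); the dotted line marks the median of all genes with totals alone, −0.47. Squares lie to the left of circles in every row, and 11 members that did not pass change sign between circle and square.

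**Figure D2:**
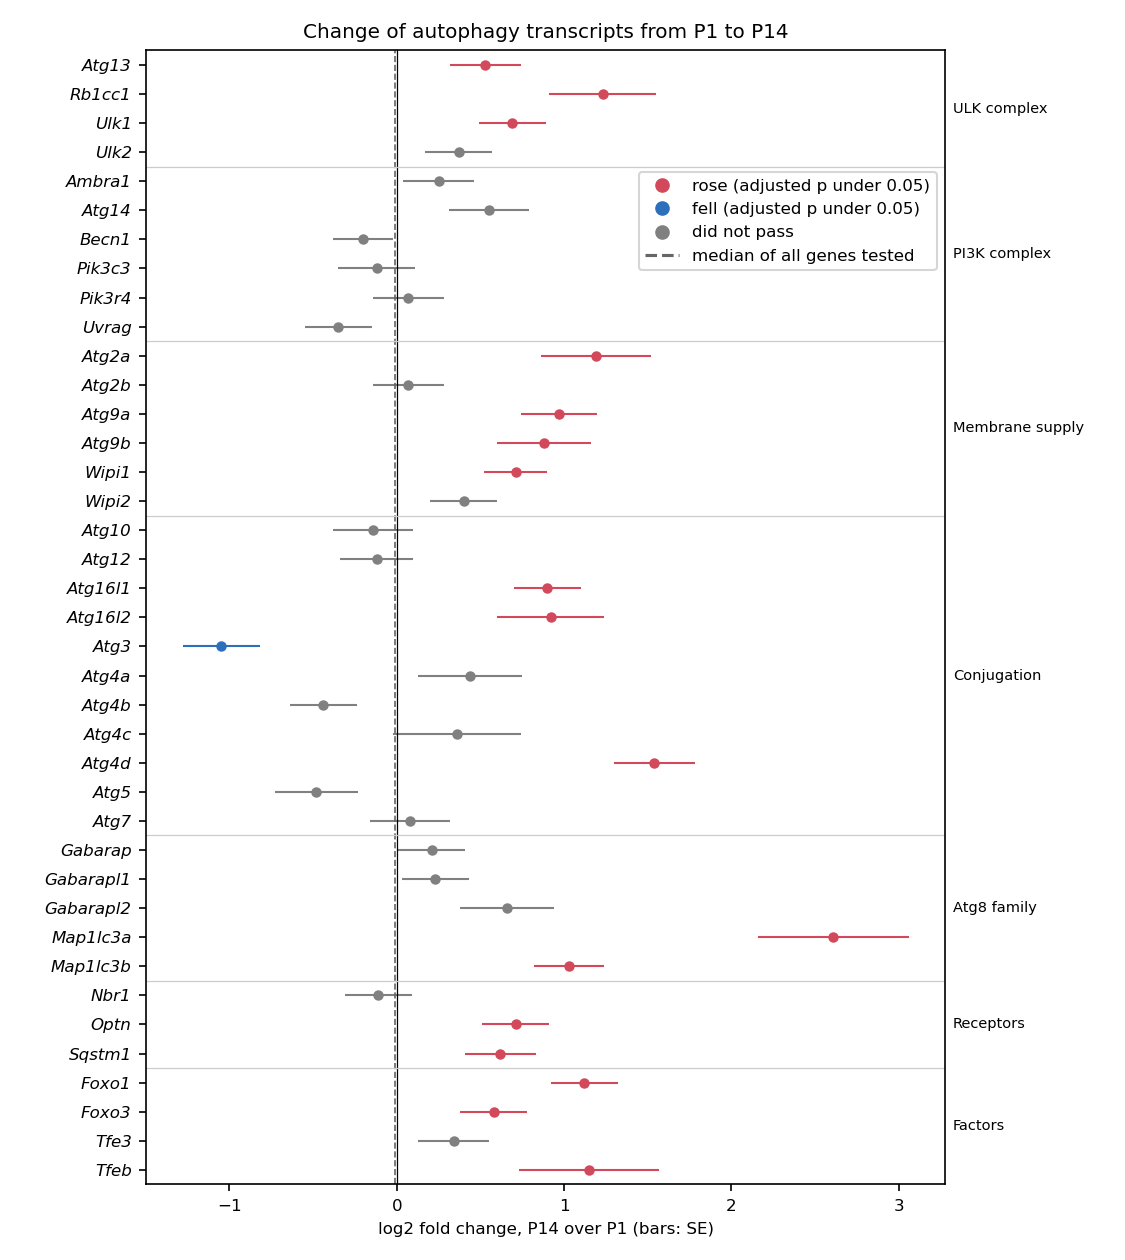
Log2 fold change of each of the 39 tested members, P14 over P1, with bars of 1 standard error, grouped by role. Red points rose, the blue point fell and grey points did not pass. Map1lc3a lies farthest to the right at 2.61, Atg3 farthest to the left at −1.05, and the 6 members of the phosphatidylinositol kinase complex are all grey.

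Among the transcription factors that drive autophagy genes, 3 of 4 rose, where 21.8% of all tested genes did. Levels are in CPM, read counts scaled to the size of their library with the TMM factor, given for replicates 1 to 3. Foxo1, a forkhead factor restrained by insulin signalling (chromosome 3, 52268336 to 52353221), stood at 21.1, 26.2 and 25.8 CPM at P1 and at 46.4, 57.5 and 55.0 CPM at P14. The ages were far apart and the pools within each close together, and the log2 fold change was 1.12 with an SE of 0.20 (edgeR adjusted p = 0.000437; later values after ± beside a fold change are SEs too). Tfeb, the best known activator of lysosome and autophagy genes (chromosome 17, 47737030 to 47792419), stood at 18.5, 4.66 and 16.0 CPM at P1 and at 27.2, 26.3 and 32.6 CPM at P14. P1 replicate 2 was far below the other P1 pools, and the fold change was the least certain of the 4 factors (1.15 ± 0.42; edgeR adjusted p = 0.0475). The call for Tfeb ended without P1 replicate 3 (edgeR adjusted p = 0.0677) and without P14 replicate 1, 2 or 3 (0.103, 0.0919 and 0.127). Foxo3, the forkhead factor known for driving atrophy genes in muscle (chromosome 10, 42181841 to 42276755), stood at 37.8, 43.3 and 39.2 CPM and then at 55.4, 52.0 and 72.4 CPM (0.58 ± 0.20; edgeR adjusted p = 0.0279). Its call ended without P1 replicate 1 or 3 (0.0861 and 0.0724) and without P14 replicate 3 (0.158), and after correction for GC content and length (0.36; 0.072). Tfe3, a relative of Tfeb, had means of 20.2 ± 2.96 and 25.5 ± 2.94 CPM (SD, n = 3) and did not pass (edgeR adjusted p = 0.205).

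Promoter windows were searched for the letters these factors are known to bind, because the factors and many of their reported targets are both members. RefSeq windows of 300 bases (250 before the gene start and 50 from it on; GRCm38.p6) were found for 33 of the 40 members, in 39 windows. The E-box core CACGTG, read the same on both strands, was found in 10.3% of the member windows and in 7.15% of all 32851 windows. It occurred in the windows of Atg3, Atg5, Atg7 and Atg14, of which Atg3 fell and the others did not pass. None of the 14 members that rose and had a window held it. With the core in 7.15% of all windows, its absence from so few tells little. The risen Map1lc3a, Atg16l1 and Rb1cc1 had no window. The longer form TCACGTGA, which contains that core, occurred in Atg3 alone among the member windows, and in 0.974% of all windows. The forkhead core TGTTTAC, searched on both strands, occurred in 0 member windows and in 3.65% of all windows. A match in these windows is a description of letters and not of binding, and sites elsewhere in the genes were not searched. The 4 windows with an E-box are shown because they hold the searched core, with the E-box in capitals. They are Atg3 at chr16:45158579-45158878 (plus strand), Atg5 at chr10:44268089-44268388 (plus strand), Atg7 at chr6:114670846-114671145 (plus strand) and Atg14 at chr14:47568385-47568684 (minus strand). For Atg7 and Atg14 the RefSeq start lies well inside the gene as GENCODE annotates it, so these windows are not at its outer start.
Atg3: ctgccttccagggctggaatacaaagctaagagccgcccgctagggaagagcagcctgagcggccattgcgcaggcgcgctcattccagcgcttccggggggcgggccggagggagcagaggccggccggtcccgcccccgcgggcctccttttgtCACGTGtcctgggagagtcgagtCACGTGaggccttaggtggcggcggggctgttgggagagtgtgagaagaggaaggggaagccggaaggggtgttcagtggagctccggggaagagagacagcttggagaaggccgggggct
Atg5: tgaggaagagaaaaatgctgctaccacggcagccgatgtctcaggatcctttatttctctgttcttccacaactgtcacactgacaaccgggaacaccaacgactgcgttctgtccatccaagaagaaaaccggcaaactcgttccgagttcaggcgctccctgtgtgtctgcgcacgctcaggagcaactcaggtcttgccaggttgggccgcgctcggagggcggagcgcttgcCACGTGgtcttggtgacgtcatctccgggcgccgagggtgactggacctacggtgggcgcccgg
Atg7: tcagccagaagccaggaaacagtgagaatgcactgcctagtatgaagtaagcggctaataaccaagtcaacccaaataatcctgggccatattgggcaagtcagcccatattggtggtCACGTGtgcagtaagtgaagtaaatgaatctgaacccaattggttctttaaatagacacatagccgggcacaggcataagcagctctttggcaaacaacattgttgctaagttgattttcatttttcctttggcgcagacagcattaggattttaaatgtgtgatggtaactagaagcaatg
Atg14: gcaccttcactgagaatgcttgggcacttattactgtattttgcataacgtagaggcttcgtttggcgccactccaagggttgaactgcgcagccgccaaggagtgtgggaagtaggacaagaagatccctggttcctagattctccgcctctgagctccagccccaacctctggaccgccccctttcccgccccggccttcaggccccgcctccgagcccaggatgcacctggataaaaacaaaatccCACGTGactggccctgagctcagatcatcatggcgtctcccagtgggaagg
Counted from the RefSeq start of each window as 0, the core began at −14 in Atg5, −132 in Atg7 and −1 in Atg14, and the 2 cores of Atg3 began at −94 and −71.

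The initiation complex senses nutrient state through its kinase. Of its 4 measured genes 3 rose, beside 21.8% of all tested genes. In each of the 4 all P14 pools lay above all P1 pools, an order that 27.3% of all genes showed. Rb1cc1, the large scaffold of the complex (chromosome 1, 6206197 to 6276648), stood at 7.77, 16.1 and 8.59 CPM at P1 and at 16.3, 32.0 and 29.2 CPM at P14. P1 replicate 2 reached almost the level of the lowest P14 pool, and the log2 fold change was 1.23 ± 0.32 (edgeR adjusted p = 0.00781). Ulk1, the kinase itself (chromosome 5, 110784488 to 110810097), stood at 38.0, 26.6 and 39.1 CPM and then at 57.8, 51.8 and 57.3 CPM (0.69 ± 0.20; edgeR adjusted p = 0.0136). After correction for GC content and length the Ulk1 value was 0.22 and its call ended (edgeR adjusted p = 0.222). Its relative Ulk2 did not pass, at 30.9, 40.1 and 39.9 CPM against 40.4, 50.2 and 52.4 CPM (0.37 ± 0.20; edgeR adjusted p = 0.155). With that correction it passed at 0.55 (0.00492). Atg13, the adaptor that joins kinase and scaffold (chromosome 2, 91674618 to 91710576), stood at 41.7, 35.6 and 55.7 CPM and then at 68.1, 60.7 and 62.8 CPM. Its adjusted p of 0.0475 in edgeR lay just under the threshold, and the call ended without any 1 of 5 libraries (0.0761 to 0.122), P1 replicate 3 being the exception.

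None of the 6 members that belong to the lipid kinase complex passed, where 43.8% of all tested genes were called. A further subunit gene that is not a member, Nrbf2, fell at a low level, from 2.08 to 0.939 CPM (edgeR adjusted p = 0.0253). This complex makes the phosphatidylinositol phosphate that marks the forming membrane. The regulatory subunit gene Becn1 encodes Beclin-1, the target of the Bcl-2 proteins, and stood at 82.4, 90.9 and 78.6 CPM at P1 and at 76.7, 66.1 and 77.1 CPM at P14 (log2 fold change −0.20 ± 0.18; edgeR adjusted p = 0.409). The catalytic gene Pik3c3 had 17.8 ± 3.53 and 16.2 ± 1.1 CPM, and the pseudokinase subunit gene Pik3r4 had 15.4 ± 1.07 and 16.2 ± 1.15 CPM. In both the ages overlapped. Uvrag, which directs the complex to endosomes, had 28.9 ± 3.03 and 22.7 ± 2.37 CPM (−0.35 ± 0.20), while Ambra1, a positive regulator, had 30.0 ± 5.63 and 35.5 ± 2.99 CPM (0.25 ± 0.21). The subunit that directs the complex to autophagosomes, Atg14, stood at 8.37, 7.29 and 10.1 CPM and then at 12.7, 12.6 and 11.8 CPM. Its ages were separate, yet it did not pass (0.55 ± 0.24; edgeR adjusted p = 0.0739) until corrected for GC content and length (0.68; 0.00904). With totals alone Becn1 and Uvrag fell, at −0.66 and −0.82 (edgeR adjusted p = 0.0247 and 0.00895). Of the 36-base windows of Becn1 transcripts 61.0% were unique among annotated transcripts, since its exons overlap Cntd1 on the opposite strand.

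Genes that deliver lipid and membrane rose in 4 of 6 cases, beside 21.8% of all tested genes. Atg9a, the scramblase of the vesicles that seed the autophagosome (chromosome 1, 75180860 to 75192196), stood at 52.5, 29.4 and 50.9 CPM at P1 and at 78.5, 88.8 and 92.3 CPM at P14. All P14 pools exceeded all P1 pools (log2 fold change 0.97 ± 0.23; edgeR adjusted p = 0.00351). Its low-expressed relative Atg9b (chromosome 5, 24384181 to 24392143) stood at 3.28, 4.08 and 3.2 CPM and then at 7.18, 5.18 and 7.21 CPM (0.88 ± 0.28; edgeR adjusted p = 0.0207). That call ended without P1 replicate 1 or 3 (0.0634 and 0.0563), without P14 replicate 1 or 3 (0.0617 and 0.0765) and with the GC correction (0.345). Atg2a, which carries lipid from the endoplasmic reticulum (chromosome 19, 6241668 to 6262335), stood at 22.1, 7.81 and 20.7 CPM and then at 31.8, 42.0 and 41.3 CPM (1.19 ± 0.33; edgeR adjusted p = 0.0117). P1 replicate 2 was again the low pool. Its partner form Atg2b did not pass, and its ages overlapped, at 19.4 to 20.9 CPM and 17.0 to 23.5 CPM. Wipi1, which reads the lipid mark (chromosome 11, 109573331 to 109611967), stood at 51.8, 48.4 and 42.4 CPM and then at 80.0, 70.4 and 83.4 CPM (0.71 ± 0.19; edgeR adjusted p = 0.00674). Wipi2, which brings the Atg16l1 complex to that mark, had 44.4 ± 7.71 and 58.5 ± 3.33 CPM and did not pass (edgeR adjusted p = 0.109). Exons of Atg9b overlap Nos3, the endothelial nitric oxide synthase gene, on the opposite strand, and those of Atg9a overlap Gm29253 on the same strand and Ankzf1 on the other.

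**Figure D3:**
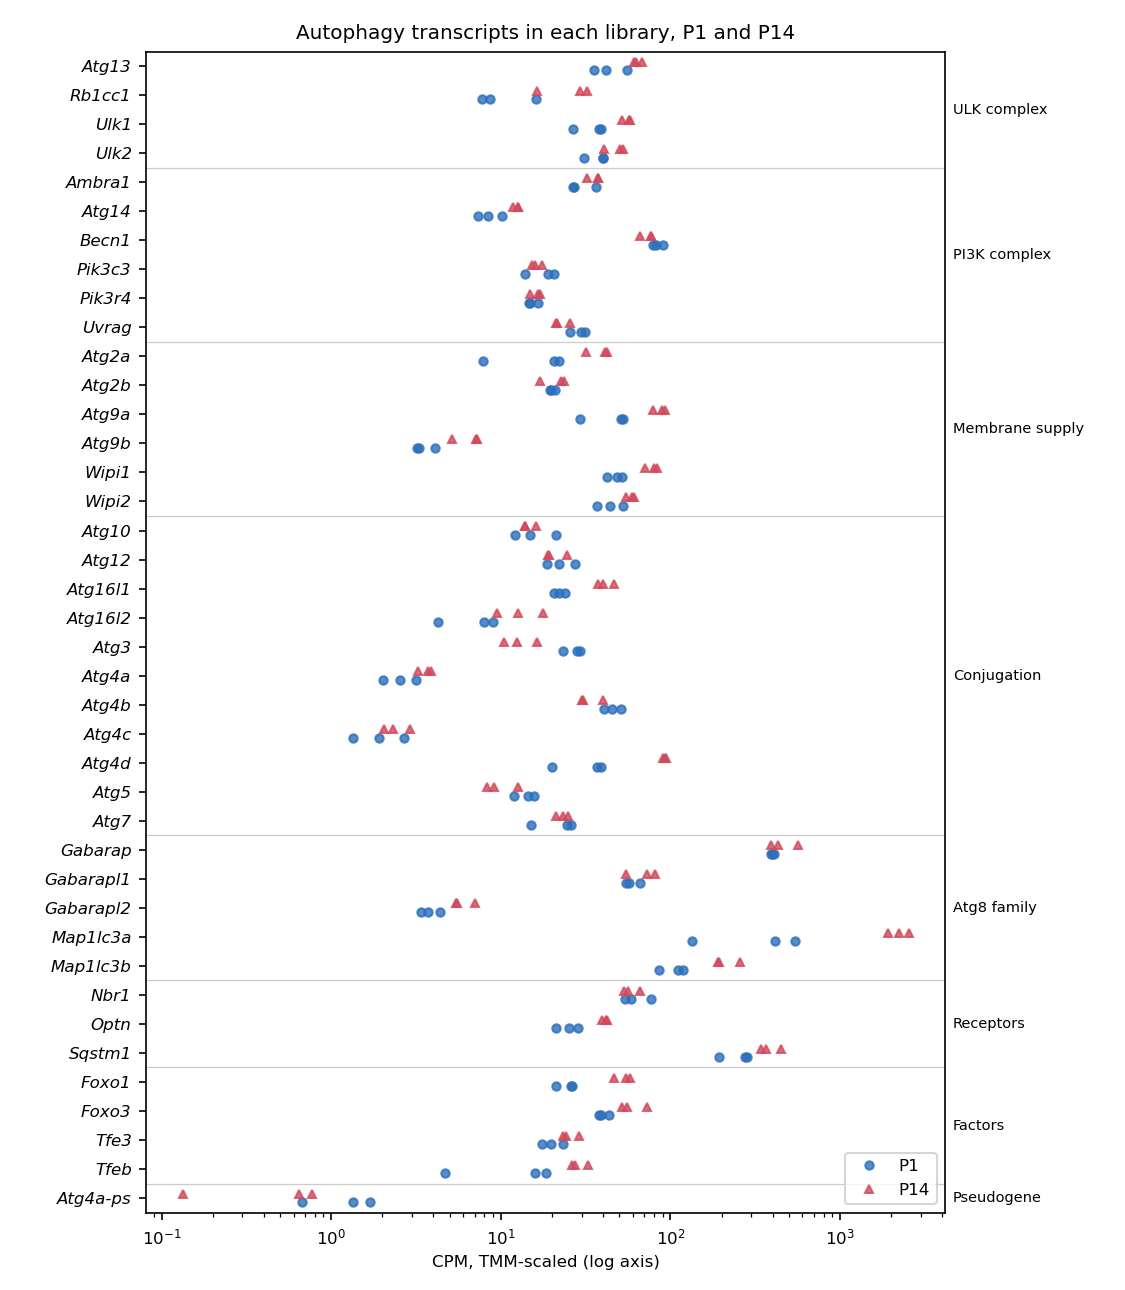
TMM-scaled CPM of each member in each library, on a log axis, with P1 as blue circles and P14 as red triangles, grouped by role. Map1lc3a runs from 134 CPM in P1 replicate 2 to 2536 CPM in P14 replicate 2, while the P14 points of Atg3, from 10.4 to 16.3 CPM, all sit to the left of its P1 points.

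Of the 11 tested conjugation genes 3 rose and 1 fell. The risen share, 27.3%, was near the 21.8% of all genes. Atg3, the E2-like enzyme (chromosome 16, 45158785 to 45188538), stood at 28.3, 29.2 and 23.4 CPM at P1 and at 16.3, 10.4 and 12.4 CPM at P14. No P14 pool reached a P1 pool, and the log2 fold change was −1.05 ± 0.23 (edgeR adjusted p = 0.00227). Atg7, the E1-like enzyme that passes Atg8 proteins to Atg3, did not pass, with 21.8 ± 5.9 and 23.0 ± 1.93 CPM (edgeR adjusted p = 0.814). Nor did Atg5, with 14.0 ± 1.86 and 10.0 ± 2.34 CPM (0.127), or its ubiquitin-like partner Atg12, with 22.7 ± 4.46 and 20.8 ± 3.04 CPM (0.701). Atg10, the E2-like enzyme that joins that pair, had 16.0 ± 4.57 and 14.6 ± 1.35 CPM and did not pass (0.672). The scaffold that places the conjugate on the membrane, Atg16l1 (chromosome 1, 87755870 to 87792428), stood at 21.9, 20.6 and 23.9 CPM and then at 46.2, 37.4 and 40.1 CPM (0.90 ± 0.20; edgeR adjusted p = 0.00209). Its relative Atg16l2 (chromosome 7, 101263034 to 101302251) stood at 8.97, 4.26 and 7.91 CPM and then at 12.7, 17.7 and 9.53 CPM (0.92 ± 0.32; edgeR adjusted p = 0.0286). The Atg16l2 call ended without P1 replicate 2 or 3 (0.0573 and 0.0514) and without P14 replicate 1 or 2 (0.0597 and 0.157).

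The Atg4 proteases, which trim Atg8 proteins and later release them from the membrane, differed among themselves. Atg4d (chromosome 9, 21265293 to 21277772) stood at 38.7, 20.0 and 36.7 CPM at P1 and at 94.0, 93.1 and 90.0 CPM at P14. The P14 pools lay within 2.09 CPM (SD) of one another, and the log2 fold change of 1.54 ± 0.24 was the second largest of the members (edgeR adjusted p = 0.000152). Exons of Atg4d overlap Kri1 on the opposite strand. Atg4b, the form with the broadest activity, went the other way at 45.1, 40.5 and 51.0 CPM and then at 39.8, 30.4 and 29.9 CPM. It did not pass (−0.44 ± 0.20; edgeR adjusted p = 0.0903), but it fell without P1 replicate 2 (−0.52; 0.0267) and without P14 replicate 1 (−0.59; 0.0445), where 2 members fell in place of 1. Atg4a and Atg4c lay low, at 2.02 to 3.86 and 1.34 to 2.92 CPM in single libraries, and did not pass. Atg4a passed after GC and length correction (0.75; edgeR adjusted p = 0.0356), but only 42.0% of its windows were unique. It shares the rest mostly with Atg4a-ps, a copy named as a pseudogene that the symbol rule also took. That copy had counts of 29, 29 and 4 at P1 and 11, 1 and 5 at P14, was removed by the filter on low counts, and had 20.9% unique windows, so the counts of this pair are uncertain.

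In the Atg8 family, the proteins that coat the autophagosome, 2 of 5 genes rose, beside 21.8% of all tested genes. Both risen genes encode LC3 forms. Map1lc3a (chromosome 2, 155276297 to 155278073) stood at 545, 134 and 415 CPM at P1 and at 1920.2, 2536 and 2219 CPM at P14. Even the highest P1 pool lay far under the lowest P14 pool, and the log2 fold change was 2.61 ± 0.45 (edgeR adjusted p = 0.00143). Correction for GC content and length brought it to 2.02 (2.79e-06), a fold change 1.5 times smaller. Map1lc3b (chromosome 8, 121590361 to 121598760), whose protein is the usual laboratory marker of autophagosomes, stood at 119, 85.1 and 110 CPM and then at 258, 192 and 191 CPM (1.03 ± 0.21; edgeR adjusted p = 0.00132). Gabarap, which acts in later autophagosome maturation and in receptor trafficking, stood at 405, 394 and 393 CPM and then at 563, 429 and 389 CPM. The ages overlapped, and it did not pass (0.21 ± 0.20; edgeR adjusted p = 0.424). Gabarapl1 likewise overlapped, with 59.2 ± 6.27 and 69.5 ± 13.6 CPM (0.37), and 75.3% of its windows were unique because its exons overlap 1700101I11Rik on the opposite strand. Gabarapl2 was low, at 3.38 to 4.35 CPM and then 5.44 to 7.04 CPM, with separate ages (0.66 ± 0.28; edgeR adjusted p = 0.0688). It passed after GC and length correction (0.90; 0.007). Its windows were 86.1% unique and otherwise shared most with Gm3724, Gm6051 and Gm5829, so its counts are uncertain.

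Levels of different genes are compared here per kilobase of the longest annotated transcript. On that scale Map1lc3a and Gabarap led the family at P1, with 328 ± 189 and 294 ± 5.01 CPM per kb, a difference within the spread of Map1lc3a. At P14 Map1lc3a had 2001 ± 277 CPM per kb and Gabarap 340.4 ± 67.4, and the 2 did not overlap. Of the 5 transcripts together Map1lc3a made up 57.5%, 25.9% and 51.2% in the P1 pools and 76.6%, 85.2% and 84.1% in the P14 pools. Every P14 share exceeded every P1 share (exact permutation test, two-sided, p = 0.1, which is the smallest p that 3 against 3 allows). The other 4 transcripts summed to 354 ± 9.19 CPM per kb at P1 and 434 ± 81.7 at P14 (exact permutation test, two-sided, p = 0.1). With library totals alone the direction of that sum turned and the ages overlapped, at 452, 441 and 357 CPM per kb and then 477, 328 and 315 CPM per kb (exact permutation test, two-sided, p = 0.5). The share of Map1lc3a within a library does not depend on the scaling between libraries. GC content differs within the family, however, at 63.1% for Map1lc3a and 45.3% to 52.7% for the others. The lowest share was that of P1 replicate 2, and the share was not computed after correction for GC content.

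**Figure D4:**
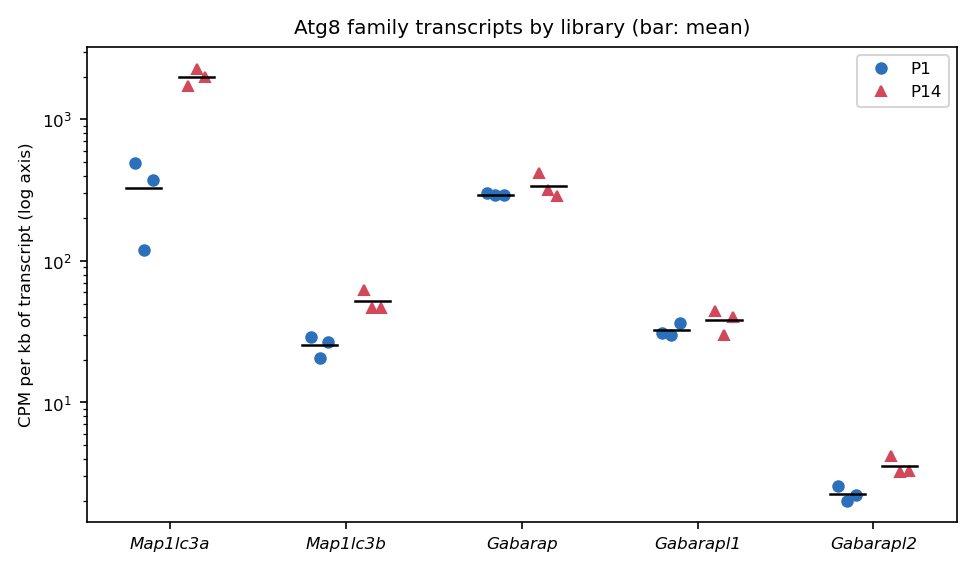
CPM per kilobase of the longest transcript for the 5 Atg8 family genes in each library, on a log axis, with P1 as blue circles, P14 as red triangles and the mean of 3 libraries as a black bar. The Map1lc3a triangles, from 1727 to 2281, stand apart from every other point, while the Gabarap points of both ages overlap.

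Of the cargo receptors, which tie ubiquitin-tagged material to LC3, 2 of 3 rose, beside 21.8% of all tested genes. Sqstm1, which gathers protein aggregates (chromosome 11, 50199366 to 50210827), stood at 274, 194 and 284 CPM at P1 and at 448, 365 and 342 CPM at P14. The ages were separate (0.62 ± 0.21; edgeR adjusted p = 0.0283), but the call ended without P14 replicate 1 (0.0961) or P14 replicate 2 (0.0661). Its exons overlap Mrnip on the opposite strand, and 83.9% of its windows were unique. Optn, a receptor of damaged mitochondria and bacteria (chromosome 2, 5020642 to 5064051), stood at 25.2, 28.6 and 21.2 CPM and then at 39.5, 42.5 and 41.6 CPM (0.71 ± 0.20; edgeR adjusted p = 0.00962). The call for Optn held without each library in turn. Nbr1, which acts beside Sqstm1 on aggregates and peroxisomes, overlapped between the ages, with 63.1 ± 11.9 and 58.4 ± 6.85 CPM (−0.11 ± 0.20; edgeR adjusted p = 0.674).

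The libraries differed in how counts followed GC content, and P1 replicate 2 stood apart. Across 14128 genes, the deviation of a library from the mean of its age correlated with transcript GC content at −0.641 in P1 replicate 2, at 0.5 and 0.34 in P1 replicates 1 and 3, and at −0.112 to 0.16 in the P14 libraries. P1 replicate 2 was the lowest P1 pool for the GC-rich Map1lc3a, Tfeb, Atg2a, Atg9a, Ulk1 and Atg4d (54.5% to 63.2% GC) and the highest for Rb1cc1 (39.1% GC). Atg9b, at 58.5% GC, went the other way, with P1 replicate 2 its highest P1 pool. Over the 39 members log2 fold change and GC content correlated at 0.55 (Pearson's r across genes, which are not replicates). The value was 0.38 without P1 replicate 2 and 0.2 after each library was corrected for GC content and length. Over all genes it was 0.22, 0.1 and 0.0, the last being set by the correction itself. That correction also removes any difference between the ages that follows GC content or length. After that correction 18 members rose and 1 fell, where 3701 of 14128 genes rose and 3626 fell. Ulk1, Foxo3 and Atg9b lost their calls, and Ulk2, Gabarapl2, Atg4a and Atg14 gained one. Tfeb passed at 0.56 (edgeR adjusted p = 0.0383), a fold change 1.5 times smaller. Without P1 replicate 2, 15 members rose and 2 fell, where 3401 of 14229 genes rose and 3309 fell.

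**Figure D5:**
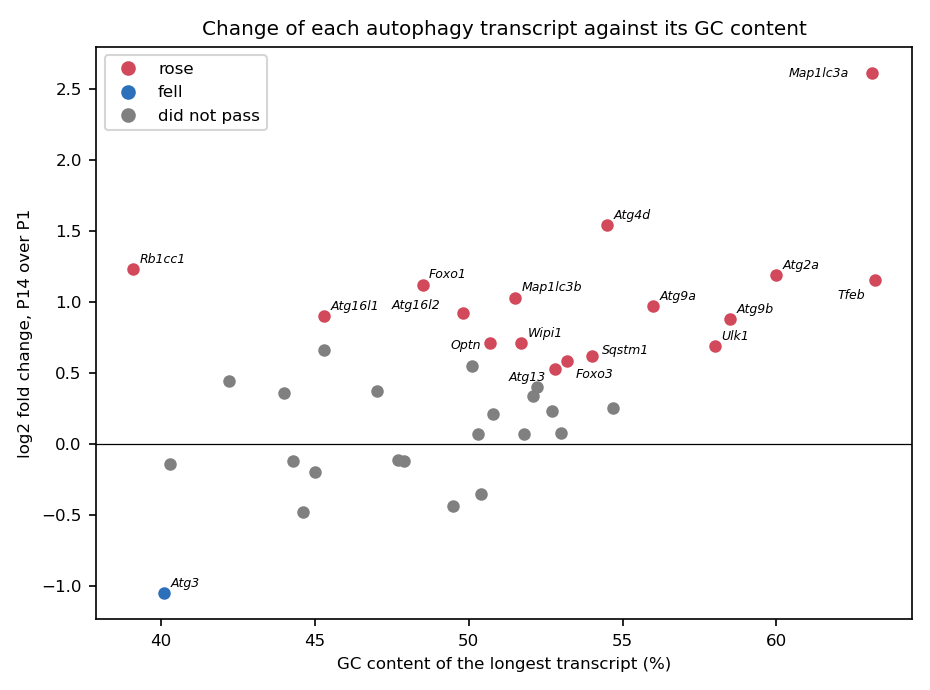
Log2 fold change of each of the 39 tested members (P14 over P1) against the GC content of its longest transcript in percent, coloured by call, with called genes named. Tfeb and Map1lc3a lie at the GC-rich end, at 63.2% and 63.1%, and Atg3 and Rb1cc1 at the GC-poor end, at 40.1% and 39.1%, with opposite changes.

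Further genes of the pathway, from 5 lists of its known parts, were mixed. Of 20 other genes of the phagophore and its regulators 2 rose and 3 fell (median log2 fold change −0.18), both smaller shares than the 21.8% and 22.0% of all genes that rose and fell. The risen genes were Tecpr2, which acts in autophagosome transport (log2 fold change 1.38 ± 0.26), and the scramblase gene Tmem41b (from 5.05 to 11.3 CPM), whose call ended with totals alone (edgeR adjusted p = 0.0828). The fallen ones were Wdr45l, a relative of the Wipi genes (from 57.2 to 31.1 CPM), Trp53inp1, an LC3-binding stress protein (from 13.6 to 7.41 CPM), and Nrbf2, a subunit of the lipid kinase complex (from 2.08 to 0.939 CPM). In that list 1 gene fell without P14 replicate 1 or P14 replicate 2, where Trp53inp1 had an edgeR adjusted p of 0.0875 and 0.104. Of 22 tested fusion genes, which join the autophagosome to the lysosome, 3 rose and 4 fell (median 0.05), which is 13.6% and 18.2% and again below both shares of all genes. Tecpr1, a tether, had 17.2 ± 3.58 and then 68.2 ± 10.8 CPM (1.99 ± 0.22; edgeR adjusted p = 9.80e-06). The effector gene Rilp rose from 25.7 to 57.6 CPM and its partner, the late endosome switch Rab7, from 83.2 to 153 CPM. The call for Rab7 ended with totals alone (0.42; edgeR adjusted p = 0.163). The SNARE genes Stx7 (from 40.3 to 20.1 CPM), Vamp7 (from 5.17 to 1.58 CPM) and Ykt6 (from 118 to 66.6 CPM) fell, as did the tethering gene Vps8 (from 36.9 to 25.3 CPM).

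Of 22 tested genes of other cargo receptors and mitophagy 6 rose and 2 fell (median −0.01), or 27.3% and 9.09%, beside 21.8% and 22.0% of all genes. The small heat shock gene Hspb8, whose protein works with Bag3 in chaperone-assisted autophagy of sarcomere proteins, stood at 87.8, 72.7 and 83.2 CPM at P1 and at 604, 481 and 488 CPM at P14. Its log2 fold change was 2.69 ± 0.21 (edgeR adjusted p = 3.75e-07). This was larger than that of each of the 39 members, but its lead over Map1lc3a (2.61 ± 0.45) lay within the standard errors. Bag3 rose from 89.8 to 217 CPM. Stub1 rose from 134 to 258 CPM, but did not pass with totals alone (edgeR adjusted p = 0.0871). Pink1, the kinase that marks damaged mitochondria, had 253 ± 85.4 and then 623 ± 82.8 CPM and rose (1.30 ± 0.26; edgeR adjusted p = 0.00101). Stbd1, which tethers glycogen to Atg8 proteins, stood at 123, 190 and 173 CPM and then at 31.2, 17.1 and 21.4 CPM, a fall of −2.79 ± 0.26 (edgeR adjusted p = 1.82e-06). Ccpg1 and Tex264, receptors of endoplasmic reticulum, rose from 28.4 to 54.6 CPM and from 25.4 to 42.9 CPM. With totals alone their calls ended (edgeR adjusted p = 0.141 and 0.312). Fam134b, another such receptor, fell from 126 to 88.2 CPM (−0.51, edgeR adjusted p = 0.042). That call ended without each library in turn (0.0523 to 0.149) and with the GC correction (−0.21; 0.211), and without P1 replicate 2, P1 replicate 3 or P14 replicate 3 the list held 1 fall.

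Of 40 tested genes of mTORC1, AMPK and nutrient sensing, which lie upstream of the initiation kinase, 10 rose and 7 fell (median 0.22), or 25.0% and 17.5%, near the 21.8% and 22.0% of all genes. Among inhibitors of mTORC1, Ddit4 had 18.7 ± 4.78 and then 51.2 ± 11.4 CPM (1.47 ± 0.24; edgeR adjusted p = 0.00024). Deptor rose from 2.0 to 14.4 CPM, Tsc2 from 102 to 179 CPM, Nprl2 from 18.4 to 29.1 CPM and Gatsl2 from 20.0 to 43.9 CPM. With totals alone the calls of Tsc2 and Nprl2 ended (edgeR adjusted p = 0.221 and 0.493). The inhibitors Sesn3 (from 5.59 to 2.77 CPM) and Ddit4l (from 1.76 to 0.678 CPM) fell, both at low levels, and several others did not pass. Stk11, the kinase that activates AMPK, rose from 48.7 to 111 CPM. Prkag2, an AMPK regulatory subunit, stood at 124, 149.7 and 118 CPM and then at 37.7, 24.4 and 24.1 CPM, a fall of −2.18 ± 0.23 (edgeR adjusted p = 4.65e-06). Rragb, one of the small GTPases that bring mTORC1 to the lysosome, had 2.58 CPM at P1 and 0.819 CPM at P14, and fell. Also risen, and not grouped with the inhibitors here, were Lamtor2 (from 55.4 to 103 CPM) and Slc38a9 (from 8.4 to 16.9 CPM). So were Flcn (from 27.1 to 44.5 CPM) and Fnip1 (from 14.5 to 25.3 CPM). None of these passed with totals alone (edgeR adjusted p = 0.122 to 0.401). Rheb (from 80.2 to 44.2 CPM), Rraga (from 49.2 to 27.1 CPM) and the AMPK subunit gene Prkaa2 (from 95.6 to 52.8 CPM) fell. Without P14 replicate 2, 6 genes of the list rose. Of 4 other factors of the MiT/TFE and FoxO kind or opposed to them, 2 rose. Mitf, a relative of Tfeb, had 22.0 ± 3.66 and then 43.9 ± 3.59 CPM (0.99 ± 0.20; edgeR adjusted p = 0.0014); with totals alone it did not pass (0.52; 0.0906). Foxo6 went from 0.688 to 2.06 CPM (edgeR adjusted p = 0.0132), and did not pass without P14 replicate 3 (0.0711), with totals alone (0.0717) or with the GC correction (0.59; 0.236). Foxo4 (27.1 and 34.9 CPM; edgeR adjusted p = 0.151) and the repressor gene Zkscan3 (18.4 and 27.6 CPM; 0.0922) did not pass. Zkscan3 passed with the replicate number as a block (0.62; 0.0154), with the GC correction (0.79; 0.00237) and without P1 replicate 2 (0.91; 0.00323).

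Markers of several cell types moved between the same ages, where 21.8% of all tested genes rose and 22.0% fell. Of 9 cardiomyocyte markers 5 rose and 0 fell, and their summed level ran from 59911 to 63462 CPM at P1 and from 84840.2 to 98809 CPM at P14. Of 9 macrophage markers 7 rose (79.2 to 91.3 and then 276 to 313 CPM in sum), 6 of 7 tested erythroid markers rose (468 to 986 and then 2700.1 to 3598 CPM), and all 4 tested granulocyte markers fell (43.7 to 56.6 and then 5.92 to 8.02 CPM). Of 8 endothelial markers 3 rose, and of 8 fibroblast markers 1 rose and 1 fell. Of 7 smooth muscle and pericyte markers 4 rose and 2 fell, and none of 4 tested skeletal muscle markers was called. Of 5 atrial markers 1 rose and 1 fell (458 to 1023 and then 203 to 355 CPM). In tissue of many cell types a change in the number of cells of a type and a change in RNA per cell cannot be told apart, and the part of these shifts in the autophagy values was not tested.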

How the data were processed

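The values deposited by the authors are raw read counts (whole numbers) of 14495 genes in 6 libraries whose totals differ. The submitters' processing notes name bedtools, edgeR 3.2.4 and the build GRCm38 (mm10) without saying what each was used for. Not given in the sources used here are the aligner, the counting program, its annotation and whether strand was used. No gene has fewer than 60 counts in all, so rarer genes are not analysed here. Libraries were 36-cycle reads; columns were tied to samples by age and replicate number.

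Genes passing filterByExpr (minimum count 10) were tested, which left 14301 and removed 194. The test was edgeR 4.0.16's robust quasi-likelihood F-test in R 4.3.3, with TMM scaling, age as the only term and Benjamini-Hochberg adjustment over all tested genes. Standard errors are the coefficient over the square root of F. The common biological coefficient of variation was 23%. On simulated counts for 14305 genes, 9% of 67 genes changed 1.5-fold, 40.3% of 67 changed 2-fold and 100% of 66 changed 4-fold were called, with 3 false calls. The simulation used a single dispersion and changed far fewer genes than the 6264 called in the data. Its rates therefore need not hold for these data. Positions, lengths, GC content and window uniqueness came from GENCODE M21 (98.8% of identifiers found), and promoters from RefSeq. No pair of libraries agreed within sampling noise (chi-square per degree of freedom at least 12).

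Both ages carry replicate numbers 1 to 3. Deviations from the age means correlated at 0.295, 0.112 and 0.102 for equal numbers and at −0.214 to 0.09 for unequal ones. By a rule of every correlation over 0.1 the numbers would pair the libraries. The value of 0.102 passed that rule narrowly and lay close to the highest unequal value, so the pairing is uncertain. It comes from the data, not from a stated source, and the main test did not use it. Alternatives were other scalings, filters, DESeq2 1.42.0, the replicate block, a spline correction for GC content and length (4 degrees of freedom) and leaving out each library. The members, lists and rules were chosen with earlier results of these data known. The text names every member. For each list it names up to 3 of the largest called changes of at least 10 CPM in the mean of both ages. It also names 1 further called change against the list's direction. Of a list with under 6 tested it names all genes. Deptor, Tsc2, Nprl2, Gatsl2, Sesn3, Ddit4l, Bag3, Tmem41b, Nrbf2, Vamp7, Ykt6 and Vps8 were named after their values were seen. The same holds for Lamtor2, Slc38a9, Flcn, Fnip1, Rheb, Rraga, Prkaa2, Stub1, Ccpg1 and Tex264.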

Additional observations from a re-analysis of the deposited data

How the results depend on the processing

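All 18 called members kept their direction in the 14 alternatives. Their calls held without each library in 12 members and ended without at least 1 library in Tfeb, Foxo3, Atg13, Atg9b, Atg16l2 and Sqstm1. The replicate block changed no call of a member, with 17 rises and 1 fall. Of the list genes named by rule it changed the call of Zkscan3 (0.62). DESeq2 and the stricter filter (over 5 CPM in 3 libraries) each called 16 rises, without Atg13 (adjusted p = 0.0532 and 0.051). With totals alone 6 members rose and 6 fell; among all genes 1620 rose and 5592 fell; of the phagophore list 1 rose and 10 fell, of the receptor and mitophagy list 3 and 7, of the nutrient sensing list 4 and 13, and of the other factors 0 rose. With the stricter filter 1 of these other factors rose, Foxo6 being removed. With the GC correction and the replicate block 5 fusion genes rose. Over the libraries left out in turn the counts ran from 12 to 15 for members risen, 1 to 2 for members fallen, 2 to 3 and 1 to 3 for phagophore genes risen and fallen, 5 to 7 and 1 to 2 for receptors, 3 to 4 and 3 to 4 for fusion genes, 6 to 12 and 6 to 7 for nutrient sensing genes, 1 to 3 for the other factors risen, and 2387 to 3401 and 2269 to 3309 for all genes. Signs turned in genes that had not passed. With totals alone the log2 fold changes were Gabarap −0.24, Gabarapl1 −0.21, Atg4a −0.04, Atg4c −0.10, Atg7 −0.37, Ulk2 −0.09, Atg2b −0.41, Wipi2 −0.04, Ambra1 −0.20, Pik3r4 −0.39, Tfe3 −0.10 and Foxo4 −0.10. With the GC correction, and then with the replicate block added, they were 0.09 and 0.09 for Nbr1, 0.14 and 0.16 for Atg10, 0.17 and 0.16 for Atg12, −0.01 and −0.01 for Ambra1, 0.07 and 0.06 for Becn1 and 0.12 and 0.14 for Pik3c3. Over the libraries left out in turn they ran from −0.22 to 0.05 for Nbr1, −0.28 to 0.10 for Atg10, −0.25 to 0.06 for Atg12, −0.14 to 0.22 for Atg7 and −0.29 to 0.02 for Pik3c3, each turning sign without P1 replicate 2, and from −0.02 (without P14 replicate 2) to 0.21 for Atg2b. The summed level of the Atg8 genes other than Map1lc3a, P14 minus P1, was 79.4 CPM per kb and, with totals alone, an alternative chosen after seeing the data, −43.4 CPM per kb. Apart from what scaling and filter do by construction, the cause was not tested. Atg4c, Atg4a, Gabarapl2 and Atg9b rest on at most 102 counts in a library, which limits their precision.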

Other observations

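Ratios of related members within a library are free of the scaling between libraries. The log2 ratio of Atg4d to Atg4b counts stood at −0.22, −1.02 and −0.47 in the P1 pools and at 1.24, 1.61 and 1.59 in the P14 pools, so that the Atg4d transcript was the less counted of the 2 in every P1 pool and the more counted in every P14 pool. The ratio of Map1lc3a to Map1lc3b went from 1.59 ± 0.82 to 3.39 ± 0.43 (SD, n = 3), and that of Atg2a to Atg2b from −0.39 ± 0.9 to 0.87 ± 0.04. The first gene of each of these pairs has the higher GC content (54.5% against 49.5% for the Atg4 pair and 63.1% against 51.5% for the LC3 pair), and P1 replicate 2 had the lowest ratio in each. In Foxo1 over Foxo3 the order of GC content is the reverse (48.5% against 53.2%), and the ratio went from −0.72 ± 0.12 to −0.17 ± 0.28. Of 9 pairs compared, 5 had ratios at P14 that did not overlap those at P1, and each of those 5 had p = 0.1 in a two-sided exact permutation test, the smallest that 3 against 3 allows (0.18 adjusted over the 9 pairs). The fifth, Tfeb over Tfe3, was separate only beyond the printed digits: its ratio was −0.09 in P1 replicate 1 and −0.09 in P14 replicate 1, and P1 replicate 2 lay far below the rest at −1.91. The ratios of Ulk1 to Ulk2, Wipi1 to Wipi2, Atg9a to Atg9b and Atg16l1 to Atg16l2 overlapped between the ages.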
